A study of Mus musculus with 24 samples.

Results

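Wild-type mouse CD4 T cells at 72 h of stimulation were set against unstimulated (0 h) wild-type naive CD4 T cells, with 3 Affymetrix arrays on each side, over all 22180 genes that the array annotation names by 1 symbol. The 2 groups were taken by their titles and make up 6 of the 24 arrays of the series. Both hold cells of wild-type littermates of TRIM28 knockout mice, enriched on magnetic beads and sorted as naive CD4 T cells. The 72 h cells had been cultured on plate-bound anti-CD3 with soluble anti-CD28, antibodies that replace antigen and costimulation, whereas the 0 h cells had not. The wild-type groups at 4 h and 24 h (3 arrays each) serve here to place the 72 h levels in time, and the TRIM28 knockout (KO) groups at 0 h and 72 h (3 arrays each) to test whether the response differs between genotypes. Strain, age, the sort gate, the way TRIM28 was deleted and any cytokine added to the culture are not stated in the labels. The labels do not say that the arrays of a group came from separate animals, so each p-value reflects array-to-array spread, part of which may be technical. Sex-linked genes, given below, show cells of both sexes within each wild-type group.

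A naive CD4 T cell is small and metabolically quiet. It recirculates between blood and lymph nodes, using receptors such as CCR7 to enter and S1PR1 to leave, and is kept alive by IL-7. Joint engagement of the T cell receptor and CD28 makes it take up nutrients, build ribosomes, secrete IL-2, grow into a blast and divide, after which the daughter cells acquire effector functions. A proliferating blast is larger and holds more RNA than a resting cell, and the normalization used here sets all arrays to a common scale, so every change below is relative to the other transcripts of the same cells.

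Values are log2 levels, so a difference of 1 is a 2-fold change, and a level of 1 gene cannot be set against that of another because probes differ. Array medians over all probe sets lay between 3.72 and 3.74 at 0 h and near 3.6 at 72 h. Arrays of the same group correlated at 0.988 to 0.992 and arrays of different groups at 0.931 to 0.934. The arrays numbered 3 stood apart at every wild-type time: Xist read 3.31 to 4.79 there and 9.90 to 10.29 on the arrays numbered 1 and 2, while the Y-linked Kdm5d read 6.68 to 7.41 there and 2.21 to 2.70 on the others. Xist is expressed in female cells and Y-linked genes in male cells. The arrays numbered 3 thus read as male and the others as female, so each wild-type group held cells of both sexes. Whether the arrays numbered 1 and 2 came from separate animals is not known. These genes were chosen after their values were seen. With the arrays numbered 1 and 2 alone in every group, 4413 genes were higher and 3369 lower at 72 h.

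The label of CD4 T cells was checked against marker genes. Cd4, the coreceptor, read 11.16, 11.06 and 11.15 at 0 h and 10.66, 10.68 and 10.75 at 72 h, and Cd3e, a chain of the receptor complex, 12.19, 12.02 and 12.03 at 0 h and 10.75, 10.78 and 10.64 at 72 h. Both were lower on all 3 arrays at 72 h than on any at 0 h. The summed linear signal of 7 CD4 T cell markers ranged from 12724 to 13458 at 0 h and from 8866 to 8999 at 72 h. The same sum over 18 B cell markers ranged from 359 to 720 at 0 h, highest on array 3, and from 396 to 452 at 72 h. For 12 natural killer and innate lymphoid markers it went from 160 to 215 at 0 h down to 83 to 91 at 72 h, for 10 erythroid and platelet markers from 137 to 151 down to 104 to 110, for 23 myeloid markers from 304 to 334 up to 367 to 391, and for the 2 CD8 markers from 72 to 84 up to 87 to 107.

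Single genes weighed heavily in the sums of 3 of the longer lists, as checked after the data were seen. Without Mpeg1, a pore-forming protein of phagocytes, the other 22 myeloid markers went from 298 to 326 at 0 h down to 257 to 284 at 72 h, so that gene alone turned the direction of the sum. Without Pou2af1, a transcriptional coactivator of B cells that rose from 6.26, 5.67 and 6.02 to 7.26, 7.06 and 7.47, the other 17 B cell markers went from 308 to 655 down to 262 to 275. Without Klrd1, a chain of natural killer receptors, the other 11 markers of that list ranged from 76 to 84 at 0 h and from 69 to 75 at 72 h, so most of that fall was Klrd1's. Of the 2 CD8 markers Cd8b1 rose by 0.33 (limma, adjusted p = 0.0215) and Cd8a changed by -0.08 (adjusted p = 0.783). The call of Cd8b1 was lost after a second quantile normalization (0.10, adjusted p = 0.559) and with the arrays numbered 1 and 2 alone (0.28, adjusted p = 0.171).

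Against 18.3% of all genes, 7 of 18 B cell markers (38.9%) and 5 of 23 myeloid ones (21.7%, near that share) were lower at 72 h. So were 5 of 12 natural killer (41.7%) and 6 of 10 erythroid and platelet markers (60.0%). Those counts became 3 for the B cell list without 0 h array 3, 3 for the myeloid list without 72 h array 1, 3 for the natural killer list without 0 h array 2 or without 72 h array 1, and 3 for the erythroid list without 72 h array 2. With the arrays numbered 1 and 2 alone, the natural killer markers Klra9, Klri2 and Ncr1 all lost their calls (limma, adjusted p = 0.0726, 0.114 and 0.287). The B cell antigen receptor component Cd79a read 5.88, 4.87 and 6.63 at 0 h and 3.94, 3.52 and 3.92 at 72 h. Klrd1 read 7.11, 6.25 and 6.98 at 0 h and 3.98, 3.80 and 4.31 at 72 h. Among myeloid markers Mpeg1 rose from 3.0, 2.60 and 2.86 to 6.77, 6.77 and 6.74, while Cd14 read 2.60 to 2.74 and Csf1r 3.18 to 3.39 over both groups, near the bottom of the scale. In bulk RNA such as this, fewer cells of a type and less RNA per cell cannot be told apart, and the part of these cells in the changes below was not tested.

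At 72 h, 4918 genes (22.2% of those tested) were higher and 4068 (18.3%) lower than at 0 h at an adjusted p below 0.05 (limma, two-sided, Benjamini-Hochberg over all genes). By the added condition of at least a 2-fold change, 1817 (8.19%) were higher and 1086 (4.9%) lower. A second quantile normalization moved that split to 1462 higher and 1456 lower. The groups' arrays did not overlap for 11178 genes (50.4%). Large changes lay mostly upward: 249 genes were higher and 54 lower by 8-fold or more, and 25 higher and 3 lower by 32-fold or more. The median change over all genes was -0.01. The shares of 22.2% higher and 18.3% lower are the background for every list count against 0 h below.

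**Figure D1:**
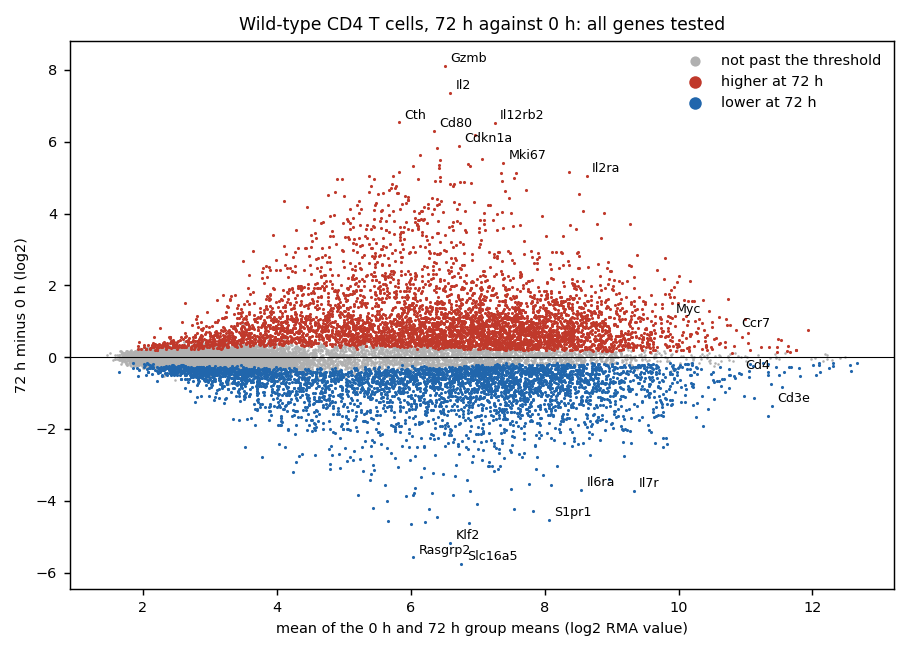
Each point is a gene, placed by the mean of its 0 h and 72 h levels (log2 RMA value, horizontal) and by the difference 72 h minus 0 h (log2, vertical). The 4918 red points passed the test upward and the 4068 blue points downward. Gzmb and Il2 lie at the top, Slc16a5 and Rasgrp2 at the bottom, and the upward tail is longer.

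The largest rise was that of Gzmb, the serine protease granzyme B of cytotoxic granules. The 3 arrays gave 2.42, 2.67 and 2.24 at 0 h but 10.67, 10.48 and 10.53 at 72 h, a log2 change of 8.12 (SE 0.14, adjusted p = 2.36e-23), or 278-fold. The 0 h arrays sat near the bottom of the scale, and most of the rise came late, since the wild-type mean was still 4.6 at 24 h. Il2, encoding the main T cell growth cytokine, read 2.68, 3.27 and 2.78 at 0 h and 10.48, 10.18 and 10.14 at 72 h (log2 change 7.36, SE 0.18). Its level had come up early, with means of 6.53 at 4 h and 9.91 at 24 h, and the 72 h level differed from that at 24 h by 0.36 (adjusted p = 0.149).

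Genes of amino acid supply followed directly in rank. Cth, which makes cysteine from cystathionine, rose from 2.40, 2.57 and 2.68 to 9.08, 9.16 and 9.02. Asns, asparagine synthetase, rose from 3.96, 3.74 and 3.93 to 10.09, 10.01 and 10.06. Between them in size of change were Il12rb2, the signalling chain of the IL-12 receptor, and Cd80, a ligand of CD28 and CTLA-4, each with 3 arrays at 72 h more than 6 log2 units above the mean at 0 h. The others among the 15 largest rises were Cdkn1a, an inhibitor of cyclin-dependent kinases (5.89), Penk, the precursor of enkephalins (5.83), Fads2, a fatty acid desaturase (5.64), Slc43a3, a nucleobase transporter (5.53), Zbtb32, a zinc finger repressor of lymphocytes (5.50), and the mitotic genes Mki67 (5.41), Kif11 (5.39), Aurkb (5.34) and Nuf2 (5.32).

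The deepest fall was that of Slc16a5, a member of the monocarboxylate transporter family, from 9.66, 9.57 and 9.65 to 3.64, 4.14 and 3.86. Rasgrp2, an activator of the small GTPase Rap, fell from 8.76, 8.92 and 8.80 to 3.39, 3.17 and 3.19, a log2 change of -5.57 (SE 0.19). Klf2, the transcription factor that keeps naive T cells quiescent and drives S1pr1 and other homing genes, fell from 9.39, 9.04 and 9.08 to 4.09, 4.04 and 3.87. For each of these genes all 3 arrays at 72 h lay more than 4 log2 units below all 3 at 0 h.

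The rest of the 15 deepest falls were a mixed group. Cd7, a surface glycoprotein of T cells, changed by -4.55, S1pr1, the sphingosine 1-phosphate receptor that lets cells leave lymph nodes, by -4.53, and Vipr1, a neuropeptide receptor, by -3.86. Ctsw, a cathepsin of lymphocytes, changed by -4.46, Pglyrp2, an amidase that cuts peptidoglycan, by -4.63, Pde2a, a phosphodiesterase of cyclic nucleotides, by -4.6, and Hsd11b1, which regenerates active glucocorticoid, by -4.00. Igfbp4, which binds insulin-like growth factors, changed by -4.28, Arhgef18 by -4.22, Ifit1bl1 of the interferon-induced Ifit family by -4.19, Dnah8, an axonemal dynein, by -4.09, and Peg13, an imprinted noncoding RNA, by -3.85.

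**Figure D2:**
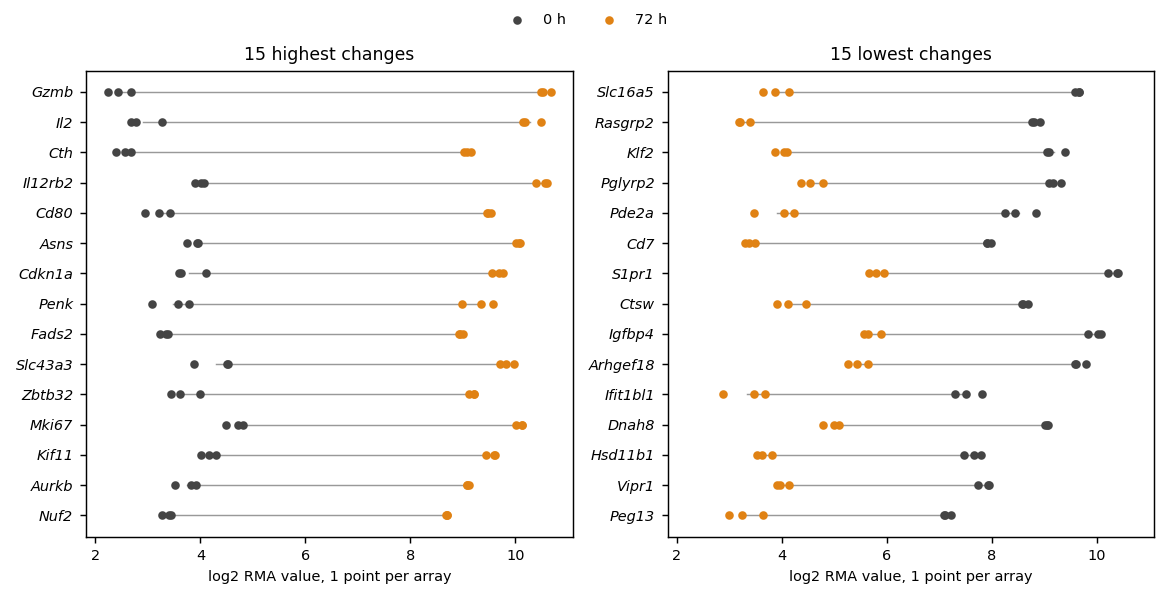
The 15 highest (left) and 15 lowest (right) changes among named genes, with 1 point per array (log2 RMA value) at 0 h (dark) and 72 h (orange) and a line between the group means. The genes were chosen among those without overlap, so the gap between groups follows from the choice. The plot shows its size and the spread of the arrays, as for Gzmb with 2.24 to 2.67 at 0 h and 10.48 to 10.67 at 72 h.

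Molecules that mark an activated T cell surface were mostly higher. Of 25 measured, 20 rose (80.0%, against 22.2% of all genes) and 1 fell (4.0%, against 18.3%), with a median change of 1.53. Il2ra, the chain that gives the IL-2 receptor its high affinity, rose from 6.07, 6.38 and 5.84 to 11.23, 11.13 and 11.11, and most of this was present by 4 h, when its mean was 10.38. Tnfsf11 (RANK ligand) rose by 4.78, and the costimulatory receptors Tnfrsf9 (4-1BB) by 4.08 and Tnfrsf4 (OX40) by 4.01. Cd44, an adhesion receptor of antigen-experienced cells, rose by 1.61 and Cd69, which holds activated cells in tissue, by 0.60. Cd40lg, the ligand through which helper cells act on B cells, was the exception: it read 9.24, 9.27 and 9.17 at 0 h, 10.49 on average at 4 h, and 8.61, 8.67 and 8.57 at 72 h, a fall of 0.61 that followed an early high.

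Of 36 cytokines and chemokines 17 rose (47.2%, against 22.2% of all genes) and 2 fell (5.56%, against 18.3%), with a median of 0.36. Beside Il2, the chemokine Ccl5 rose from 5.44, 4.84 and 4.77 to 10.21, 9.90 and 10.30, and it did so after 24 h, when its mean was 4.30. Ccl3 rose by 5.0 and was already at 9.78 at 24 h. Csf2 (GM-CSF) rose by 4.61 in its brighter probe set, whereas its other probe set changed by 0.24. Cxcl10, a chemokine induced by interferons, rose from 3.42, 3.50 and 3.15 to 7.50, 7.52 and 7.73.

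The signature cytokines of helper subsets behaved differently from one another. Ifng, the T helper 1 cytokine, read 3.85, 3.99 and 3.74 at 0 h and 5.19, 5.15 and 4.71 at 72 h, a rise of 1.16 (SE 0.13). Il4, the T helper 2 cytokine, changed by 0.03 (95% interval -0.14 to 0.21, adjusted p = 0.811), and Il17a, the T helper 17 cytokine, by -0.09 (95% interval -0.34 to 0.15, adjusted p = 0.596), both at low signals. Ltb, a lymphotoxin chain of naive cells, fell by 1.86, and Il16 fell by 0.84.

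Receptors for cytokines moved in both directions, with 6 of 27 higher (22.2%, the share of all genes) and 11 lower (40.7%, against 18.3% of all genes). Those of the IL-2, IL-12 and IL-15 systems rose: Il12rb2 by 6.53, Il12rb1 by 4.31, Il2rb by 2.89 and Il15ra by 2.44. Il12rb2 read 4.06, 4.02 and 3.90 at 0 h, averaged 4.92 at 24 h, and read 10.60, 10.57 and 10.40 at 72 h. Il7r, the receptor chain for the survival cytokine IL-7, fell from 11.39, 11.03 and 11.14 to 7.4, 7.54 and 7.46. Il6ra fell by 3.70 and its partner Il6st (gp130) by 2.25, Il18r1 fell by 2.71, and the transforming growth factor receptors Tgfbr2 and Tgfbr3 fell by 2.12 and 1.82.

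Among 38 transcription factors of T cell lineages and effector states 19 rose and 14 fell, while 22.2% of all genes rose and 18.3% fell. Bhlhe40, a regulator of cytokine production, rose by 5.17, Irf8 by 4.87 (0.53 in its other probe set) and Irf4, an integrator of receptor signal strength, by 4.67. Irf4 had its full level at 4 h (mean 10.52, against 10.05 at 72 h), whereas Tbx21 (T-bet, the T helper 1 factor) went from 4.29, 3.92 and 4.16 through a 24 h mean of 5.36 to 8.26, 7.87 and 7.88. Its relative Eomes rose by 3.08, also after 24 h. Gata3, the T helper 2 factor, fell by 0.85, Foxp3, the regulatory T cell factor, by 1.22 with 5.31, 5.06 and 5.95 at 72 h, Bcl6 of follicular helper cells by 1.46, Prdm1 by 1.36, Runx1 by 1.62 and Ikzf3 by 2.48.

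Of 16 genes of cytotoxic granules 5 rose (31.2%, against 22.2% of all genes) and 3 fell (18.8%, against 18.3%), with a median of -0.13. Gzmb rose together with Serpinb6b (4.42) and Serpinb9 (3.23), serpins of which the latter inhibits granzyme B, and with the granule membrane protein Nkg7 (3.53). Prf1, the pore-forming perforin that delivers granzymes into target cells, went the other way: it read 8.09, 7.65 and 8.08 at 0 h and 4.24, 4.31 and 3.98 at 72 h. Ctsw fell as given above and Gzmm fell by 0.66, while Gzma, a granzyme of natural killer cells, changed by -0.19 (adjusted p = 0.342). Prf1 and Ctsw are also expressed by natural killer cells. Of the 12 markers of those cells 5 fell (41.7%, against 18.3% of all genes), and Klrd1 made up most of the fall of their sum. The part of such cells in the falls of Prf1 and Ctsw was not tested.

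Of 17 receptors that restrain T cells 9 were higher (52.9%, against 22.2% of all genes) and 4 lower (23.5%, against 18.3%). Lag3 rose by 5.03, Tigit by 4.29, Cd200 by 3.94, Pdcd1 (PD-1) by 2.97 and Ctla4 by 2.26. Pdcd1 peaked early, with a mean of 9.10 at 24 h and 7.67, 7.68 and 7.90 at 72 h, whereas Tigit averaged 4.44 at 24 h and read 7.76, 7.46 and 7.65 at 72 h. Lair1, a collagen receptor, fell by 2.01, Nt5e (CD73) by 1.65 and Cd96 by 1.64.

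Of 27 receptors of homing 13 were lower (48.1%, against 18.3% of all genes) and 6 higher (22.2%, the share of all genes). Ccr8 and Ccr4, chemokine receptors of skin-homing and activated cells, rose by 4.29 and 3.88, and the integrin chain Itgb1 rose by 1.83. Cxcr4 fell from 9.48, 9.40 and 9.42 to 6.10, 6.47 and 6.36, from a lower mean of 5.0 at 24 h. The integrin chains Itgb7, Itgb3 and Itga4 fell by 2.33, 1.94 and 1.74, and the ATP-gated channel P2rx7 by 1.83.

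Genes of the naive and quiescent state were lower in 26 of 30 cases and higher in 1, with a median change of -1.78, the lowest of all lists. Klf2, S1pr1, Igfbp4, Il7r and Pik3ip1, an inhibitor of phosphoinositide 3-kinase, changed by -5.17, -4.53, -4.28, -3.72 and -3.22. Cdkn1b, the p27 inhibitor that holds T cells in G1, fell from 8.95, 8.92 and 9.09 to 7.19, 7.05 and 7.20, having been lower at 24 h (mean 5.94). The 1 member that rose was Ccr7, with 10.57, 10.42 and 10.44 at 0 h, a dip to 9.47 at 4 h, and 11.28, 11.22 and 11.19 at 72 h. The receptor for entry into lymph nodes was thus higher at 72 h and the one for exit lower.

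Gimap genes encode GTPases of lymphocyte survival, and 7 of 8 fell. Gimap6 changed by -2.03, Gimap3 by -1.40, Gimap5 by -1.20, Gimap8 by -1.14, Gimap1 by -1.0 (-0.29 in its other probe set), Gimap4 by -0.71 and Gimap9 by -0.40. Gimap7 read 7.14, 6.94 and 6.75 at 0 h and 6.80, 6.99 and 6.82 at 72 h, with overlapping arrays (-0.07, 95% interval -0.41 to 0.26).

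Components of T cell receptor signalling were lower in 21 of 29 cases (72.4%, against 18.3% of all genes) and higher in 4 (13.8%, against 22.2%). Tespa1 fell by 1.85, the kinase Prkcq by 1.64, the adaptor Grap2 (Gads) by 1.64, the phosphatase-like Ubash3a by 1.49 and the Ras activator Rasgrp1 by 1.40. Cblb, a ubiquitin ligase that damps receptor signals, rose by 0.58, and the negative regulators Cd6 and Cd5 rose by 0.51 and 0.27.

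Genes of the immediate early response answer a receptor signal within minutes to hours. Of 32 such genes 15 were higher (46.9%, against 22.2% of all genes) and 11 lower (34.4%, against 18.3%). Fos fell from 9.48, 8.79 and 8.63 to 6.29, 6.20 and 6.32, and Fosb and Zfp36, whose product destabilises cytokine mRNA, fell by 2.33 and 2.72. The 0 h arrays spread more than the 72 h arrays for Fos. Dusp4, a phosphatase of MAP kinases, rose by 4.24, Atf3 by 4.07, Ier3 by 3.73, the orphan receptor Nr4a2 by 3.47 and Spry1 by 3.34. Atf3 was at 4.99 at 24 h and at 8.86, 8.78 and 8.88 at 72 h on the arrays.

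**Figure D3:**
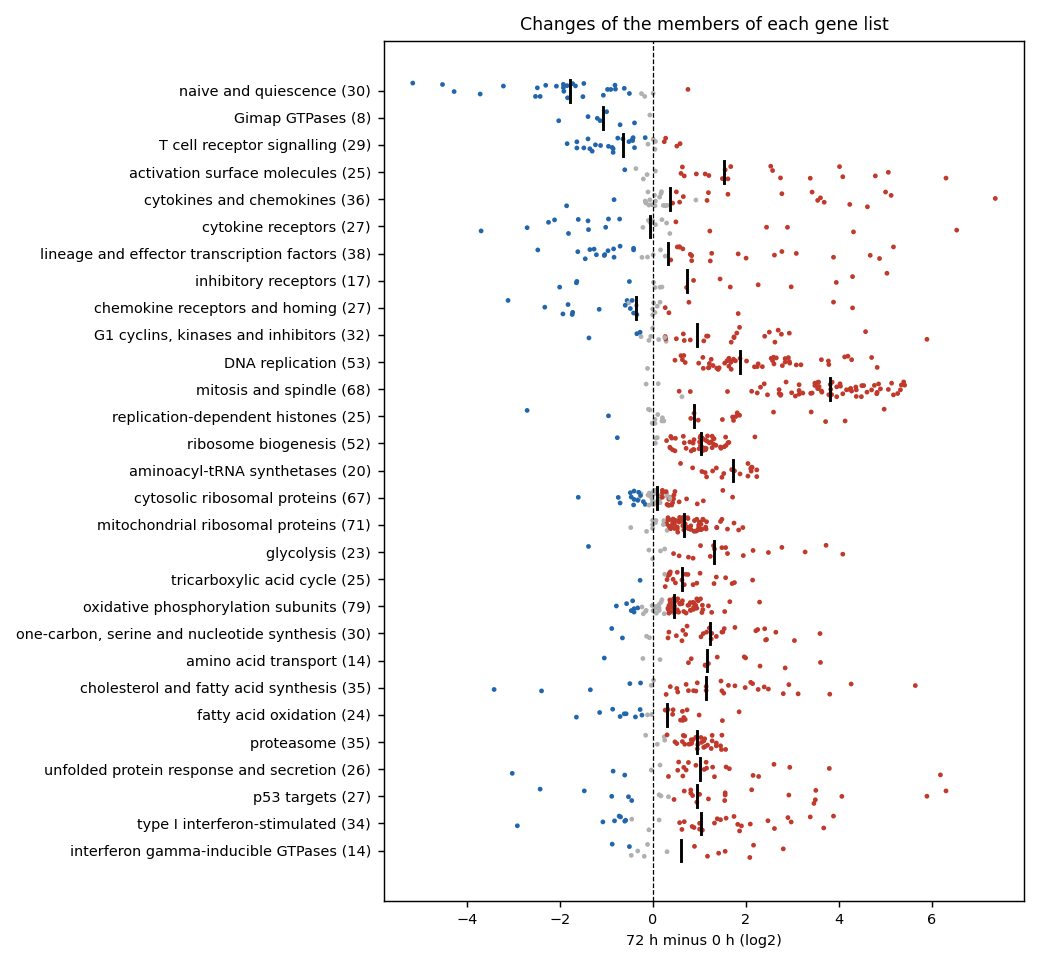
Each point is a gene of the list named at the left (number measured in brackets), placed by 72 h minus 0 h (log2), red or blue where it passed the test upward or downward and grey where it did not, with vertical jitter. The thick bar is the list's median and the dashed line that of all genes (-0.01). The mitosis list lies farthest to the right (median 3.80) and the naive list farthest to the left (median -1.78).

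Cell cycle genes were taken by phase. Of 32 regulators of G1, the phase before DNA synthesis, 22 rose (68.8%, against 22.2% of all genes) and 3 fell (9.38%, against 18.3%). Their median was 0.95. The transcription factors E2f8, Foxm1 and Mybl2 rose by 4.57, 2.93 and 2.76 (0.52 in the other probe set of Mybl2), the kinase Cdk6 by 2.69 and Ccnd2 (cyclin D2) by 0.65, while Ccnd3 (cyclin D3) changed by 0.12 (adjusted p = 0.336). Rbl2 (p130), the pocket protein of resting cells, fell by 1.38. Cdkn1a (p21), an inhibitor, rose beside these from 4.10, 3.60 and 3.63 to 9.76, 9.69 and 9.56.

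Of 53 DNA replication genes 52 rose and none fell, with a median of 1.87. Ticrr and Mcm10, which act at replication origins, rose by 4.82 and 4.70, the nucleotide enzymes Tk1 and Rrm2 by 4.27 and 4.12 (0.52 in the other probe set of Rrm2), and Uhrf1, which carries DNA methylation through replication, by 4.19. Mcm10 read 3.26, 3.52 and 3.47 at 0 h, averaged 8.67 at 24 h and read 8.15, 8.14 and 8.07 at 72 h. Pcna, the sliding clamp of the polymerases, rose by 0.47 from a level that was high on all 0 h arrays.

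Of 68 genes of mitosis and the spindle 65 rose and none fell, with a median of 3.80. Mki67, the source of the Ki-67 antigen, went from 4.81, 4.49 and 4.72 to 10.12, 10.12 and 10.02. The spindle motor Kif11 rose from 4.01, 4.17 and 4.30 to 9.61, 9.59 and 9.44, and Tpx2, which organises spindle microtubules, by 5.26. For both, all arrays at 72 h lay far above all arrays at 0 h.

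Replication and mitosis parted between 24 h and 72 h. Against 24 h, where 2583 genes (11.6%) were higher and 3503 (15.8%) lower at 72 h, none of the 53 replication genes was higher and 42 were lower, with a median of -0.51. Of the 68 mitosis genes 59 were higher and none lower, with a median of 0.94. Uhrf1 differed by -0.65 and Mcm10 by -0.55, Mki67 by 1.14 and Tpx2 by 1.87.

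Replication-dependent histone genes, which are transcribed in S phase, rose in 14 of 25 cases (56.0%, against 22.2% of all genes) and fell in 2 (8.0%, against 18.3%). H1f5 rose from 2.32, 2.41 and 2.74 to 7.47, 7.26 and 7.63, H2bc12 by 4.13 and H2ac10 by 3.71. H4c14 fell by 2.71 and H2bc21 by 0.96. Many of these genes are near-identical copies, so their probes may share signal.

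Promoter sequence was examined for the groups that moved together, in the window from 250 bases before to 50 after each RefSeq start (GRCm38.p6), on both strands. A promoter was found for 16990 of the genes tested. The E2F motif, searched as TTTCCCGC, TTTCGCGC, TTTGCCGC and TTTGGCGC, was present in 17 of 44 replication genes (38.6%) and in 3.26% of all genes. The cell cycle homology region (CHR), searched as TTTGAA, was present in 42 of 58 mitosis genes (72.4%) and in 17.8% of all genes. A match describes these letters and no binding. Stretches with the motif in capitals are shown for the replication gene and the 2 mitosis genes of largest change, among those named here, that hold it upstream of the start. They lie at chr17:56304088-56304175 on the plus strand (Uhrf1), chr7:135716432-135716535 on the minus strand (Mki67) and chr19:37376323-37376381 on the plus strand (Kif11), each given 5′ to 3′ along the gene's strand and wholly upstream of its transcript.
Uhrf1: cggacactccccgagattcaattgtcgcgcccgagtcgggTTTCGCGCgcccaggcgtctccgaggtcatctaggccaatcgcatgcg
Mki67: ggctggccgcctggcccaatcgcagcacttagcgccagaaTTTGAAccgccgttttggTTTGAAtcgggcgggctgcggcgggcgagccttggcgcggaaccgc
Kif11: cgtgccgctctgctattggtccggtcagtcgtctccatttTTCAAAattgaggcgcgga

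Growth of the cell's synthetic machinery showed in several lists. Myc, the transcription factor that drives T cell growth, rose from 9.35, 9.32 and 9.28 to 10.42, 10.45 and 10.43 and had been at 10.67 at 4 h. In its network of 13 genes 6 rose (46.2%, against 22.2% of all genes) and 3 fell (23.1%, against 18.3%). Mxd4 and Mnt, partners of Max that oppose Myc, fell by 2.25 and 1.38, whereas Mxi1 and Mxd1, further antagonists, rose by 0.96 and 0.90.

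Of 52 ribosome biogenesis genes 48 rose and 1 fell, with a median of 1.04. Gar1, a protein of snoRNPs, rose by 2.19, and the nucleolar proteins Nop2, Nop16 and Nop58 by 1.63, 1.57 and 1.56. Nop16 averaged 9.44 at 4 h and 9.85 at 24 h and read 9.0, 9.16 and 9.09 at 72 h. Against 24 h, 46 of the 52 genes were lower at 72 h and 1 higher. Ppan was the gene that fell (-0.77), and its other probe set rose by 1.18. The probe sets of Taf1d, which rose by 1.61, also disagreed, from -0.47 to 1.61 over 11 of them.

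Ribosomal proteins themselves changed less. Of 67 cytosolic ones 23 rose (34.3%, against 22.2% of all genes) and 13 fell (19.4%, against 18.3%). Their median was 0.09, from Rps27l (1.71) and Rps23 (1.5) to Rps27 (-1.61). With a gene's probe sets averaged, 7 fell. Of 71 mitochondrial ribosomal proteins 61 rose and none fell, with a median of 0.66, and Mrpl32, Mrps22 and Mrps10 rose by 1.93, 1.84 and 1.74.

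All 20 aminoacyl-tRNA synthetase genes measured, whose enzymes charge tRNAs with amino acids, rose, by 0.59 to 2.23 (median 1.72). Nars, for asparagine, rose from 8.07, 8.29 and 8.31 to 10.55, 10.36 and 10.45, Yars, for tyrosine, by 2.23, Cars, for cysteine, by 2.12 and Eprs, for glutamate and proline, by 2.11. Unlike ribosome biogenesis, 11 of the 20 were higher at 72 h than at 24 h and 4 lower. Of 14 amino acid transporters 11 rose and 1 fell (median 1.16). Slc7a5, the carrier of large neutral amino acids, rose from 8.0, 7.81 and 8.08 to 10.81, 10.73 and 10.87, Slc1a4 by 3.60, Slc7a1, for arginine and lysine, by 1.99 and Slc1a5, for glutamine, by 1.96. Slc7a11, which imports cystine, read 2.52, 2.56 and 2.22 at 0 h and 4.84, 4.68 and 4.68 at 72 h in its brighter probe set, and its other probe set changed by 0.11.

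Synthesis of serine, one-carbon units and nucleotides was higher in 26 of 30 genes and lower in 2 (median 1.23). Psat1, of serine synthesis, rose from 5.54, 5.54 and 5.66 to 9.18, 9.15 and 9.18, and the mitochondrial folate enzymes Aldh1l2, Mthfd2 and Shmt2 by 3.04, 2.64 and 2.44. Shmt1, the cytosolic counterpart, rose by 2.42 and was lower at 72 h than at 24 h by 1.19. Aldh1l2 read 3.31, 3.05 and 3.08 at 0 h, still averaged 3.14 at 24 h, and read 6.05, 6.10 and 6.43 at 72 h.

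Several of these late genes are known targets of ATF4, the transcription factor of the integrated stress response, which slows translation when amino acids are short or unfolded protein gathers. In the list of the unfolded protein response and secretion 21 of 26 genes rose and 3 fell (median 1.01). Beside Asns, Chac1, which degrades glutathione, rose from 3.05, 3.26 and 3.17 to 6.94, 6.69 and 7.22, and Trib3, a pseudokinase, from 4.92, 5.29 and 4.88 to 7.30, 7.01 and 7.59. Asns, Chac1 and Trib3 had means of 6.03, 3.60 and 4.09 at 24 h, and each was higher at 72 h than at 24 h, by 4.03, 3.35 and 3.22. Ero1a and Sdf2l1, of protein folding in the endoplasmic reticulum, rose by 2.60 and 2.94. Dnajb9, a cochaperone there, fell from 9.17, 8.76 and 8.63 to 5.83, 5.89 and 5.75.

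The C/EBP-ATF response element (CARE), searched as TGATGNAA on both strands, was present in the promoters of 4 of 13 synthetase genes (30.8%), 3 of 10 transporter genes (30.0%), 1 of 27 one-carbon genes (3.70%) and 3.92% of all genes. Asns, Chac1 and Slc7a11 hold it upstream of their starts, at chr6:7693210-7693272 on the minus strand, chr2:119351009-119351096 on the plus strand and chr3:50443614-50443719 on the minus strand (RefSeq, GRCm38.p6). They were chosen because they hold it, and the matches are in capitals. Asns and Chac1 have the largest rises of such genes, among those named here, in the unfolded protein response list. Slc7a11 has that of the transporter list. The share of promoters with the motif in the unfolded protein response list was not counted.
Asns: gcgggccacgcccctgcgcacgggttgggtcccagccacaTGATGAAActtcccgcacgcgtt
Chac1: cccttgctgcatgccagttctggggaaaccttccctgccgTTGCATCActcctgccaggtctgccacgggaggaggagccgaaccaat
Slc7a11: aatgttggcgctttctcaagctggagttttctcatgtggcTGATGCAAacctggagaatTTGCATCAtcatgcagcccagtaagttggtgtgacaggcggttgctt

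For ribosome biogenesis the E-box CACGTG, the site of Myc and Max among other factors, was present in 12 of 48 promoters (25.0%) and in 9.19% of all genes. Its share was also 25.0% in the cholesterol and fatty acid list (7 of 28), 23.1% in the synthetases (3 of 13) and 18.2% in the replication genes (8 of 44). Nop2, which rose by 1.63, holds it at chr6:125131783-125131868 on the plus strand.
Nop2: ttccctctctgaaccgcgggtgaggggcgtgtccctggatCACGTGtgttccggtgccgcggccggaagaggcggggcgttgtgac

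Glycolysis, by which blasts turn glucose to lactate, was higher in 18 of 23 genes and lower in 1 (median 1.30). Hk2, the inducible hexokinase, rose from 3.95, 4.08 and 4.02 to 8.05, 8.21 and 8.02, Tpi1 by 3.72 and Pgk1 by 2.77. The lactate carriers Slc16a3 (MCT4) and Slc16a1 (MCT1) rose by 3.27 and 2.48, the former after 24 h and the latter by 4 h, when its mean was 9.61 against 9.75, 9.76 and 9.73 at 72 h. The glucose transporter Slc2a1 rose by 1.48 (0.38 in its other probe set). Pdk1, a kinase that keeps pyruvate out of mitochondria, fell by 1.39, and its other probe set changed by -0.26. Slc16a5, the gene of deepest fall, belongs to the same transporter family as Slc16a1 and Slc16a3.

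In the pentose phosphate pathway 5 of 6 genes rose, among them Pgd (1.31) and Rpia (1.06), and H6pd, its enzyme of the endoplasmic reticulum, fell by 1.24. In the tricarboxylic acid cycle and its linked transaminases 23 of 25 genes rose and 1 fell (median 0.62), with Got1 (2.14), Fh1 (1.75), Dld (1.70) and Got2 (1.56, but 0.16 in its other probe set) ahead. Of 79 subunits of oxidative phosphorylation 54 rose and 7 fell (median 0.44). Cox6a2 rose by 2.29, Ndufc2 by 1.65 and Ndufb6 by 1.54, while Uqcrh fell by 0.79 and Cox7c by 0.57.

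Synthesis of cholesterol and fatty acids was higher in 28 of 35 genes and lower in 5 (median 1.14). Fads2 rose from 3.39, 3.22 and 3.34 to 8.93, 8.95 and 9.0, and Scd1, the stearoyl desaturase, from 4.46, 3.56 and 4.36 to 8.47, 8.52 and 8.17, both largely after 24 h. The sterol enzymes Cyp51, Sqle and Hmgcs1 rose by 3.80, 3.12 and 2.92 and were high from 4 h on, with means of 7.94, 7.81 and 8.64. The 5 that fell included the sterol exporters Abcg1 and Abca1 by 2.40 and 1.35, and Mylip, the ligase that degrades the LDL receptor, by 3.42. The sterol response element, searched as TCACNCCAC, was present in 1 of 28 of these promoters (3.57%) and in 1.43% of all genes, the 1 being that of Hmgcs1.

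Oxidation of fatty acids changed in both directions (median 0.29). Of 24 genes 13 were higher (54.2%, against 22.2% of all genes) and 9 lower (37.5%, against 18.3%). Etfb and Acadl rose by 1.85 and 1.49. Cpt1a, the enzyme that admits fatty acids to mitochondria, fell from 8.55, 8.57 and 8.70 to 7.08, 6.85 and 6.94, above its mean of 6.10 at 24 h.

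Protein turnover and folding genes were higher as well. Of 35 proteasome genes 31 rose and none fell (median 0.95), with Psma1 (1.56), Psmc5 (1.48) and the immunoproteasome subunit Psmb9 (1.47) ahead. Of 24 heat shock and chaperonin genes 21 rose and 1 fell (median 1.22). The mitochondrial chaperones Hspd1 and Hspa9 rose by 2.52 and 2.12, the cytosolic chaperonin subunits Cct6a, Cct7 and Tcp1 by 1.72, 1.58 and 1.52 (0.16 in the other probe set of Tcp1), and Dnajb1 fell by 0.46. Of 30 lysosome and autophagy genes 11 rose (36.7%, against 22.2% of all genes) and 11 fell (36.7%, against 18.3%). Gabarapl1 rose by 3.62 and Map1lc3b (LC3B), of the same family of autophagosome proteins, fell from 8.87, 8.86 and 8.88 to 6.92, 7.03 and 6.99.

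The BCL2 family sets the threshold of mitochondrial cell death. Of its 15 genes 7 were higher (46.7%, against 22.2% of all genes) and 3 lower (20.0%, against 18.3%). The protective Bcl2l1 (BCL-XL) rose from 5.13, 5.10 and 4.98 to 7.62, 7.68 and 7.49, and Bcl2a1a by 1.68. Bcl2 read 9.64, 9.31 and 9.32 at 0 h and 9.15, 9.09 and 9.35 at 72 h, with overlapping arrays (-0.22, 95% interval -0.46 to 0.01), after a mean of 8.24 at 24 h. Of the genes that promote death, Pmaip1 (NOXA) and Bak1 rose by 1.55 and 1.1 and Bcl2l11 (BIM) fell by 0.91.

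Targets of p53 were higher in 19 of 27 cases (70.4%, against 22.2% of all genes) and lower in 5 (18.5%, against 18.3%). Their median was 0.94. Cdkn1a and Cd80 lead this list too. Perp, a membrane protein of the p53 response, rose from 3.78, 3.65 and 3.67 to 7.64, 7.99 and 7.63, Psrc1 by 3.50 and Sesn2 by 3.49. Against 24 h, 19 of the 27 were higher at 72 h and none lower (median 0.83). Btg2 and Sesn1 fell by 2.43 and 1.48, and both belong to genes of resting cells as well. Many list members answer other signals too, Sesn2 those of ATF4 among them.

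**Figure D4:**
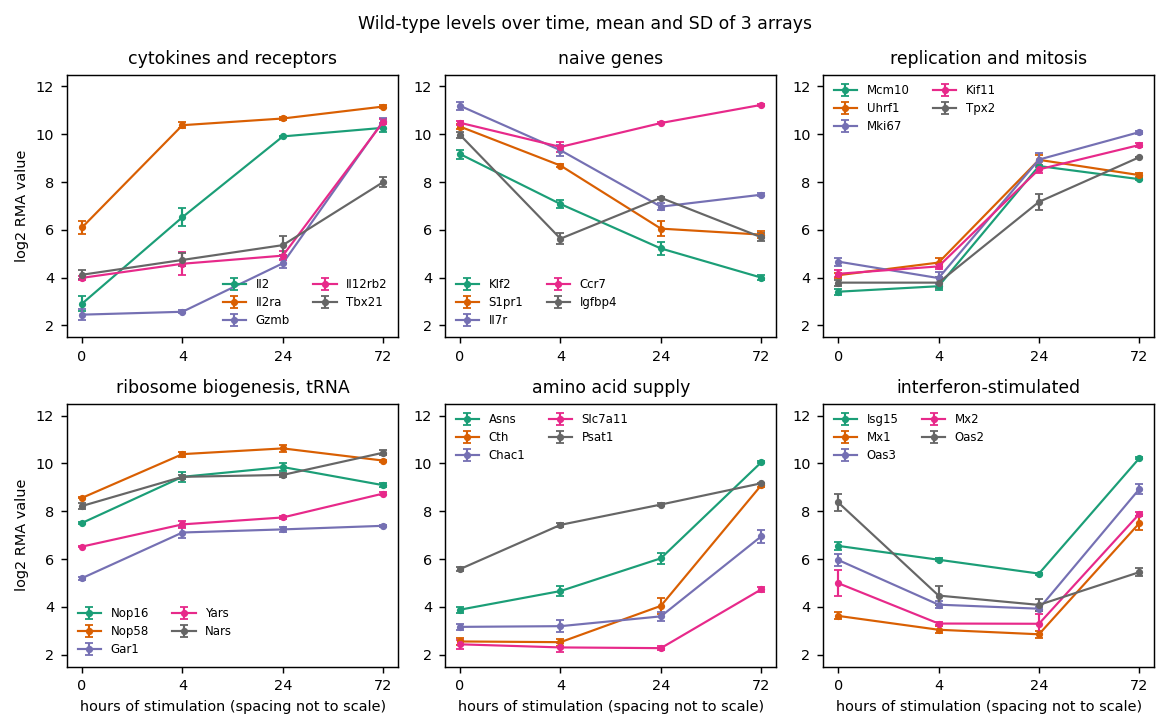
Wild-type levels (log2 RMA value) at 0, 4, 24 and 72 h (spacing not to scale) for 5 genes in each of 6 panels, with points at the mean and bars at the SD of 3 arrays. Il2 and Il2ra rise by 24 h, whereas Gzmb, Il12rb2, Asns and Cth rise mainly between 24 h and 72 h, and the 5 interferon-stimulated genes drawn dip at 4 h and 24 h (Isg15 at 5.97 and 5.39) before they rise (10.22 at 72 h).

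Interferon-stimulated genes were traced through all 4 times. Of 34 genes induced by type I interferon 24 were higher at 72 h than at 0 h (70.6%, against 22.2% of all genes). Lower were 7 (20.6%, against 18.3%), and the median was 1.03. Isg15, a ubiquitin-like modifier, read 6.72, 6.56 and 6.37 at 0 h and 10.23, 10.26 and 10.17 at 72 h, Mx1, an antiviral GTPase, 3.80, 3.55 and 3.52 and then 7.35, 7.83 and 7.33. Bst2 (tetherin) rose by 3.38, Oas3 by 2.97 and Mx2 by 2.90. The 72 h arrays of these genes lay above all 0 h arrays.

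At 72 h 32 of the 34 genes were higher than at 24 h and none lower, with a median of 3.01. Oas3 averaged 5.96 at 0 h, 4.09 at 4 h, 3.92 at 24 h and 8.93 at 72 h. Oas2, its relative, was the member that fell most against 0 h: it read 8.65, 8.47 and 7.99 at 0 h, averaged 4.08 at 24 h and read 5.33, 5.66 and 5.36 at 72 h. Ly6e fell by 0.83 and Ifi27 by 1.08.

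GTPases induced by interferon gamma were also higher than at 24 h. Of 14, 7 were higher and 2 lower than at 0 h, and 13 higher and none lower than at 24 h (median 1.6). The number lower against 0 h was 1 without 0 h array 1 or 2 and without 72 h array 1 or 3. Gbp5 rose from 6.66, 6.39 and 6.48 to 9.26, 9.41 and 9.25, Gbp10 by 2.08, Igtp by 1.55 and Irgm2 by 1.41. Iigp1 rose by 2.16 with a wider spread at 0 h (7.10, 6.35 and 6.73).

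The interferon-stimulated response element (ISRE), searched on both strands as GAAA, any 2 bases and GAAA, was present in the promoters of 12 of 23 of the type I genes (52.2%) and in 3.87% of all genes. Isg15 and Bst2, named above, hold overlapping matches at chr4:156200835-156200936 and chr8:71537547-71537642, both on the minus strand and upstream of the start (RefSeq, GRCm38.p6), shown in capitals.
Isg15: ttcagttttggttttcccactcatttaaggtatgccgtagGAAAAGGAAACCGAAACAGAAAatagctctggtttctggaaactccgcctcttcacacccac
Bst2: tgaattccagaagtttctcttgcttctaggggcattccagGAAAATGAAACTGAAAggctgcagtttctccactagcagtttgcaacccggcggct

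Silencing factors, the class to which the knocked-out gene of the series belongs, were higher in 17 of 25 cases (68.0%, against 22.2% of all genes). They were lower in 4 (16.0%, against 18.3%), and the median was 0.46. Trim28 itself, a corepressor brought to chromatin by KRAB zinc finger proteins, read 7.81, 7.71 and 7.84 at 0 h and 8.78, 8.57 and 8.55 at 72 h in wild type, a rise of 0.85. Ezh2, the Polycomb methyltransferase of dividing cells, rose from 7.08, 7.17 and 7.08 to 9.92, 9.90 and 9.97, with its partners Eed (1.47) and Suz12 (0.88), while Ezh1, its paralog of resting cells, fell by 1.38. The heterochromatin protein Cbx5 rose by 1.72. Of the enzymes that oxidise methylcytosine, Tet1 fell from 6.63, 6.54 and 6.41 to 4.14, 3.95 and 3.98 and Tet3 by 1.21. Of 362 genes with a Zfp symbol (zinc finger proteins) 65 were higher and 93 lower (median -0.04), which is 18.0% and 25.7% of the list against 22.2% and 18.3% of all genes. A second quantile normalization gave 52 higher and 136 lower.

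Reference genes of general use changed too. Gapdh, a glycolytic enzyme, rose from 11.62, 11.53 and 11.52 to 12.29, 12.34 and 12.31. Actb (cytoplasmic actin) changed by 0.24 (adjusted p = 0.0138), a call that was lost without 0 h array 1 (0.21, adjusted p = 0.0536) or without 72 h array 1 (0.19, adjusted p = 0.0908).

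The course of the changes over time was read from the group means. Of the 1817 genes higher by at least 2-fold at 72 h, 1122 had their highest wild-type mean at 72 h, 578 at 24 h and 117 at 4 h. Of the 1086 lower ones, 717 had their lowest mean at 72 h, 203 at 24 h and 166 at 4 h. Thus the sizes at 72 h describe late inductions such as Gzmb, Ccl5 and Chac1 beside remnants of earlier peaks such as Pdcd1, Spry1 and Nop16.

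The response in KO cells was tested against that of wild-type cells as an interaction. Trim28 averaged 7.78 at 0 h and 8.64 at 72 h in wild type and 5.16 and 5.55 in KO cells, lower in KO cells at both times. The change from 0 h to 72 h was higher (more upward or less downward) in KO cells for 234 genes (1.06%) and lower for 634 (2.86%). A second quantile normalization gave 398 and 538, and the arrays numbered 1 and 2 alone 112 and 339. Gzmb, among the latter, rose by 8.12 in wild type and by 5.20 in KO cells, a difference of -2.91 (SE 0.20, adjusted p = 3.24e-10). Cxcl10 differed by -3.30, Mpeg1 by -3.47, Tbx21 by -2.26, Eomes by -2.68 and Il12rb2 by -2.37.

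Of the 34 type I interferon genes 23 had a lower response in KO cells and none a higher one (median -1.08), and of the 14 GTPases 10 had a lower one (median -1.14). The difference was past the threshold for 3 of 68 mitosis genes, all higher in KO cells, and for 3 of 53 replication genes. Their medians were 0.12 and 0.11, and 3.91% of all genes passed. For Il2 the 2 responses differed by -0.12 (SE 0.25, adjusted p = 0.913). The lowest differences of all were those of Upk1b (-4.92), Cacna1b (-4.03) and Snai3 (-3.81), which did not pass the test in wild type, with changes of 0.03, -0.14 and -0.17. Their KO levels were high at 0 h, with means of 8.69, 7.78 and 8.69 against 3.4, 3.5 and 4.38 in wild type, and came down to 3.8, 3.61 and 4.71 at 72 h. The highest difference was that of M1ap (3.95), which changed by 0.73 in wild type and went from 2.83 to 7.51 in KO cells.

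**Figure D5:**
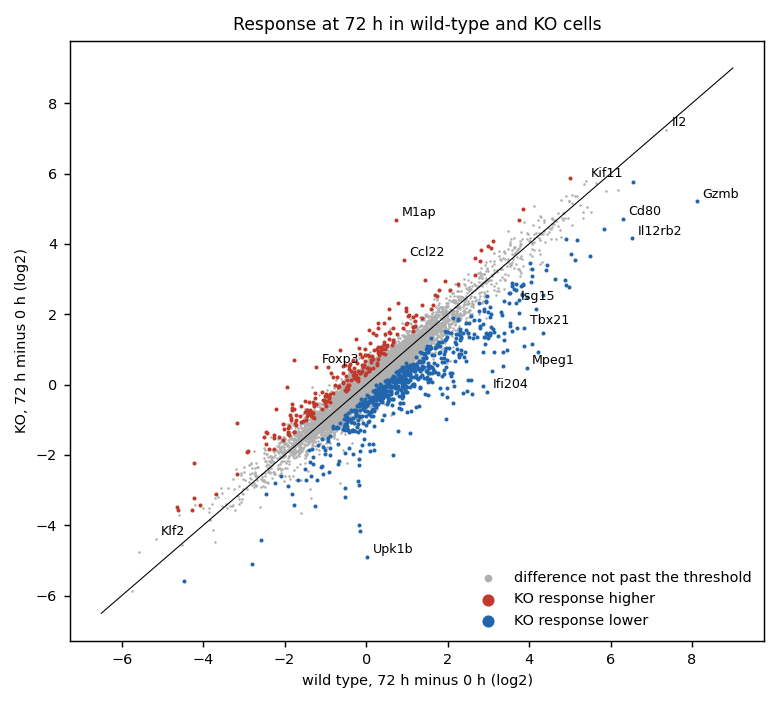
Each point is a gene, placed by its change from 0 h to 72 h in wild type (log2, horizontal) and in KO cells (log2, vertical), with the line of equal response. The 634 blue points had a lower and the 234 red points a higher response in KO cells by the interaction test. Il2, Kif11 and Klf2 lie near the line, Gzmb, Il12rb2 and Mpeg1 below it and M1ap above it.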

How the data were processed

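RNA was measured on 24 Affymetrix arrays in 8 groups of 3 by genotype and time. The authors deposited log2 levels of 41345 probe sets, made by RMA with oligo (R 3.1.0), per the submitters' processing notes. RMA sets the probes of all arrays to a common distribution, so a change common to all genes cannot be seen. Differences between low signals are understated. The deposited probe-set levels still differed, with wild-type array medians of 3.72 to 3.74 at 0 h and near 3.6 at 72 h. A second quantile normalization therefore still changed the values. Batches and detection calls were not used. Precision is limited by the 3 arrays per group.

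The platform annotation gave 23521 probe sets 1 symbol, of which 23328 were matched to RefSeq (GRCm38.p6) by Entrez ID. For 1082 genes with several probe sets the one of highest mean was taken, leaving 22180 genes. Means of the 8 groups were fitted over all 24 arrays with limma 3.58.1 (R 4.3.3, eBayes with trend, 24.8 degrees of freedom). P-values were adjusted by Benjamini-Hochberg over all genes and called below 0.05. The fit was tested on simulated data. The contrasts were wild type 72 h minus 0 h, wild type 72 h minus 24 h, and the interaction of 72 h minus 0 h with genotype.

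The groups compared, the gene lists and the motifs were chosen with earlier results of these data known, and lists share some genes. Genes named were drawn from the 15 highest and 15 lowest changes whose arrays do not overlap (without predicted genes, small RNAs and receptor segments). To these came up to 5 members per list in its main direction and 4 in the other. The 6 highest and 6 lowest interactions, a set of reference genes and all members of small and marker lists could also be named. Not every gene that qualified is given. Same-numbered wild-type 0 h and 72 h arrays deviated together with correlations of 0.058, 0.047 and 0.15, each the best match for its number. The labels state no pairs, so the main fit did not use the numbers. Alternatives were averaging probe sets, a filter that dropped genes with a mean level under the 40th percentile, a second quantile normalization, centring on array medians, fitting the compared groups alone, eBayes without trend or robust, a replicate block, the arrays numbered 1 and 2 alone, and leaving out each array. Marker sums without 1 gene were added after the data were seen.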

Additional observations from a re-analysis of the deposited data

Results flagged for a closer look

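The change from 0 h to 72 h differed between KO and wild-type cells, by the interaction test in limma, for these genes named in the report, given as KO minus wild-type response (log2). Over all genes it was lower in KO cells for 634 and higher for 234, of which those listed are a part. Not named elsewhere, Ifi204 differed by -3.17, Ccl22 by 2.63 and Otud1 by 2.47. A lower response in KO cells was found for Upk1b (-4.92), Cacna1b (-4.03), Snai3 (-3.81), Mpeg1 (-3.47), Cxcl10 (-3.3), Gzmb (-2.91), Perp (-2.9), Mx1 (-2.78), Eomes (-2.68), Il12rb2 (-2.37) and Tbx21 (-2.26). Below these in size came Iigp1 (-2.21), Irf8 (-1.9), Serpinb9 (-1.84), Gbp10 (-1.84), Zbtb32 (-1.83), Nkg7 (-1.77), Il15ra (-1.77), Cd80 (-1.59), Ccl5 (-1.59), Oas3 (-1.54) and Mx2 (-1.54). They were followed by Cd200 (-1.46), Penk (-1.42), Mxd1 (-1.41), Isg15 (-1.36), Lag3 (-1.33), Abca1 (-1.26), Irgm2 (-1.23), Igtp (-1.21), Serpinb6b (-1.16), Gbp5 (-1.14) and Ifng (-1.14). Next in size were Ctsw (-1.11), Psmb9 (-1.09), Bhlhe40 (-1.06), Tnfrsf9 (-0.99), Slc7a11 (-0.9), Psrc1 (-0.9), Aldh1l2 (-0.82), Mthfd2 (-0.81), Il2rb (-0.8), Cth (-0.79) and Tnfrsf4 (-0.56). The rest were Eed (-0.45) and Hspa9 (-0.24). A higher response in KO cells was found for M1ap (3.95), Itgb3 (1.86), Foxp3 (1.72), P2rx7 (1.27), Pglyrp2 (1.07), Arhgef18 (1.0), Tet1 (1.0), Ltb (0.99) and Sqle (0.96). Below these came Tespa1 (0.9), Ccl3 (0.88), Lair1 (0.74), Igfbp4 (0.71), Dnah8 (0.67), Rasgrp1 (0.59), Map1lc3b (0.48), Cd3e (0.46), Il6st (0.43) and Cd5 (0.3). Some of these differences lay in the 0 h level. Cd200 averaged 7.53 in KO and 5.99 in wild-type cells at 0 h, and 10.01 and 9.93 at 72 h. Itgb3 averaged 6.08 and 7.97 at 0 h, and 6.0 and 6.03 at 72 h. How many of the listed genes did so was not counted.

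Probe sets outside the named genes also moved in wild type. Of 16010 with no listed gene 966 were higher and 4026 lower at 72 h, and of 1814 with several genes 344 were higher and 311 lower (limma, adjusted over those probe sets). For the former the median change was -0.16 and the median level went from 3.8 to 3.48.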

How the results depend on the processing

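With every alternative the counts of genes higher and lower at 72 h than at 0 h stayed within 1.5 times the main counts. Leaving out 1 array gave 4640 to 4703 higher and 3639 to 3808 lower, and a second quantile normalization 4222 higher and 4899 lower. For the interaction, genes with a higher response in KO cells numbered 398 after that normalization and 112 with the arrays numbered 1 and 2 alone, where those with a lower one numbered 339. Ppan turned to 0.2 (adjusted p = 0.0696) with its probe sets averaged, since they disagree in sign, and Bcl2 passed the test after quantile normalization (-0.32, adjusted p = 0.0264). The cause of the other differences was not tested.

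The replicate block, with the number in the title as a term, gave 4916 higher and 4081 lower genes. Each 0 h and 72 h array correlated best with its own number, a hint from the data and not the design. Between wild-type 24 h and 72 h arrays only number 3 did so (0.145, against -0.004 and 0.022 for numbers 1 and 2).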

Other observations

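Of 483 genes of microRNA precursors 19 were higher (3.93%, against 22.2% of all genes) and 107 lower (22.2%, against 18.3%) at 72 h than at 0 h (limma, adjusted over all genes). Levels of precursors on such arrays do not measure the mature microRNA.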
